A study of Mus musculus with 4 samples.

Results

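The loci of Minpp1, Zfp608 and Dntt were taken from ATAC-seq peak lists of mouse liver, and were chosen because each held 3 or more regions called in both libraries of a single genotype. ATAC-seq maps open chromatin through the Tn5 transposase, which cuts accessible DNA and inserts sequencing adaptors. A locus was the gene with 50 kb on either side, in GRCm38 (mm10) RefSeq coordinates. The members are 3 of 21631 protein-coding genes, and their windows held 30 of the 38853 regions made by merging the peaks of all libraries. A region is called PA-only where both PA libraries and no WT library had a peak in it, and WT-only in the opposite case. Minpp1 and Zfp608 had 3 PA-only regions each, and Dntt had 3 WT-only regions. Those calls selected the genes, so they are described here and not tested.

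The PA group was 2 livers of female mice aged 11 weeks, labelled hypomorphic Pcca-/- (A138T), with a weakened alpha subunit of propionyl-CoA carboxylase, the enzyme whose loss causes propionic acidemia. The WT group was 2 livers of wild-type females of the same age. All mice were on the FVB background, ate standard chow and lived in a 12/12 h light-dark cycle, and each library started from 20 mg of frozen whole liver. The lists held 25683 and 29765 peaks in PA 1 and PA 2, against 26280 and 25941 in WT 1 and WT 2. A peak within 1 kb of a gene end was present for 7 of 10 hepatocyte marker genes in PA 1 and 7 in PA 2, against 8 in WT 1 and 7 in WT 2. Every library called 4 of the 10 (40%), near the 41.3% of all protein-coding genes. Albumin (Alb) had one in PA 1 only, and Apoa1 had none in any library. The windows of Apoa1 and Fgb each held 1 PA-only region. Among all genes 9.73% had 1 or more, from which 2 of 10 markers are too few to set apart. The files give positions without heights, so a call says that a window passed the authors' threshold and not how open it was. Read depth is unknown.

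The 3 genes have different roles. Minpp1 encodes multiple inositol polyphosphate phosphatase, an enzyme of the endoplasmic reticulum that removes phosphates from highly phosphorylated inositols such as phytate. Zfp608 encodes a zinc finger protein of the nucleus, related to Zfp609 and described in mouse thymocytes as a repressor of the Rag genes. Dntt encodes terminal deoxynucleotidyl transferase, the DNA polymerase that adds bases without a template at the joints of antigen receptor genes in developing lymphocytes. It is a marker of immature lymphocytes.

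Promoter sequences were read from RefSeq (GRCm38.p6), which places 250 bases before and 50 after each transcription start. They are shown for 4 genes of the chromosome 19 windows to set promoters called in some libraries (Minpp1 and Blnk) beside one called in all (Gm36419) and one called in none (Dntt). Bases in capitals lay under a peak of at least 1 library, and each sequence runs 5′ to 3′ on the strand of its gene. Minpp1 (chr19:32485519-32485818, plus strand) has its last 153 bases under a peak of PA 1, and no base under a peak of any other library. Gm36419 (chr19:32543097-32543396, plus strand), a long non-coding RNA gene in the Minpp1 window, is covered over 300 bases in PA 1 and 283 in PA 2, and over 300 in WT 1 and 300 in WT 2. Blnk (chr19:40994172-40994471, minus strand), the gene of the B cell linker protein in the Dntt window, is covered over 297 bases in PA 1 and 0 in PA 2, against 299 in WT 1 and 300 in WT 2. Dntt (chr19:41029025-41029324, plus strand) has no peak over its promoter in any library.
Minpp1: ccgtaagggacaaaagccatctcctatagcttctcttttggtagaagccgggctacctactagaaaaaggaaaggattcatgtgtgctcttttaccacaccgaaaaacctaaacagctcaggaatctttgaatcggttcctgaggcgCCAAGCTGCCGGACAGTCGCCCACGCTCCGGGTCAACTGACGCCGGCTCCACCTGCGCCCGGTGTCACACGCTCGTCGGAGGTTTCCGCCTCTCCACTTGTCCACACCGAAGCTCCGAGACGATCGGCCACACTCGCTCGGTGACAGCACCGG
Gm36419: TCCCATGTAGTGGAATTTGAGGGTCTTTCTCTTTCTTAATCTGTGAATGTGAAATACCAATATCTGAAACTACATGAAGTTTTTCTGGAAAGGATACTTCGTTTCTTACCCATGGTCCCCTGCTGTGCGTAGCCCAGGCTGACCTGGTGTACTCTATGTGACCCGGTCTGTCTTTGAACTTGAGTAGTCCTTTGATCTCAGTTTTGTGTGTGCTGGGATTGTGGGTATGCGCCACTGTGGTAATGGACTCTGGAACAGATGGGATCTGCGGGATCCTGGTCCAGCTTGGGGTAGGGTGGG
Blnk: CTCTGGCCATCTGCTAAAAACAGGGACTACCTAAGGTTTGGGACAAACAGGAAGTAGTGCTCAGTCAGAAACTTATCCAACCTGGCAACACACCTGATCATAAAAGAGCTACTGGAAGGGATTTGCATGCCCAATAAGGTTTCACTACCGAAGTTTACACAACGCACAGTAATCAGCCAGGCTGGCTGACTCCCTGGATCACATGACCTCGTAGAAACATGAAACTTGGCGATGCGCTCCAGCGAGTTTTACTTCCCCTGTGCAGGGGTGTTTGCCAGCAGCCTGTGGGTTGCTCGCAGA
Dntt: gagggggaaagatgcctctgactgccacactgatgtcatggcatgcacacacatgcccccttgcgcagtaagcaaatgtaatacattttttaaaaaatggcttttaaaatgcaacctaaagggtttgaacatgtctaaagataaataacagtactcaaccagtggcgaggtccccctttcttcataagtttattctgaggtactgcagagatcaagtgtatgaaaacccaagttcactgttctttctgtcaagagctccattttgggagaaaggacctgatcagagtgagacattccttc

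The promoters of Minpp1 and Dntt differ in base composition. Minpp1 has 24 CpG pairs and 57.0% G and C, and 80.0% of the 32817 promoter windows in the RefSeq table have fewer CpG pairs. Dntt has 2 CpG pairs and 42.3% G and C, and 14.1% of promoters have fewer. The median promoter has 7 CpG pairs. A search for 8 short motifs on both strands found none of them in the Minpp1, Dntt or Opalin promoter. The motifs, none of which contains another, with the share of promoters that hold each, were TGTTTAC (3.65%), AGGTCA (16.3%), TTGCGCAA (0.183%), CACGTG (7.15%), TGACTCA (5.20%), GGGCGG (35.6%), CCAAT (37.4%) and TATAAA (13.6%). Gm36419 and Blnk each hold 1 match to AGGTCA and 1 to CCAAT, all under a peak. The promoter of C330026H20Rik, a long non-coding RNA gene below Dntt with no peak over it, holds GGGCGG and 2 overlapping matches to TATAAA on opposite strands. A match describes letters and is not evidence of a bound factor.

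Regions of either genotype alone are a small part of these lists. PA-only regions made up 3.38% of all merged regions (1315 of 38853), and WT-only regions 1.98% (768). Regions called in 1 PA and 1 WT library made up 9.17% (3564), and regions of a single library 26.8% (10412). Calls shared by 2 libraries only were thus also common across genotypes. A window with 3 or more PA-only regions was found for 10 of 21631 genes, which is 0.0462%. A window with 3 or more WT-only regions was found for 5 genes, which is 0.0231%. Because the selected genes were taken from these, their counts are read against no expectation. Just below the threshold, 125 genes had exactly 2 PA-only regions and 108 had exactly 2 WT-only regions.

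**Figure D1:**
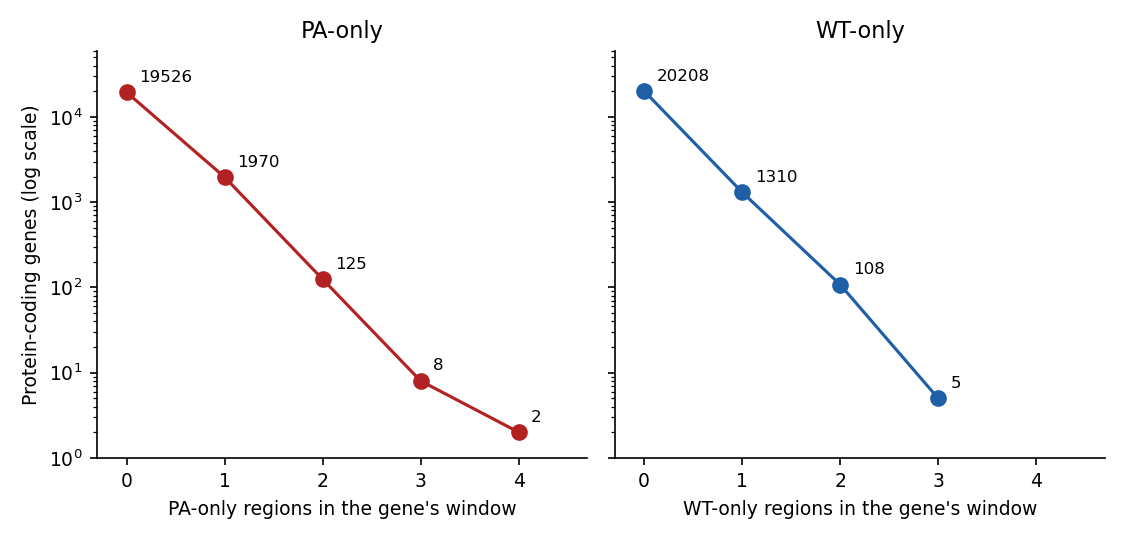
Number of protein-coding genes (vertical axis, log scale) by the number of PA-only regions (left) or WT-only regions (right) in the gene's window of 50 kb on either side. Of 21631 genes, 19526 had no PA-only region and 20208 no WT-only region, and at 3 regions there were 8 and 5 genes.

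Minpp1 (gene ID 17330, chromosome 19, 32485769 to 32515370, plus strand) had 8 peaks in PA 1 and 7 in PA 2 across its window, against 3 in WT 1 and 5 in WT 2. The rule gives each PA library 3 of these peaks and the WT libraries none. In the other 7 regions the counts were 5 in PA 1 and 4 in PA 2, against 3 in WT 1 and 5 in WT 2, and the groups overlapped. These peaks formed 10 regions, of which 3 were PA-only, 1 was called in all 4 libraries, 3 in 3 libraries, 1 in PA 1 and WT 2, and 2 in a single PA library. None of the 3 PA-only regions lay inside the gene.

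The PA-only region before Minpp1 (32476636 to 32477039) lay 8730 bp from the gene start and inside Gm46659, a long non-coding RNA gene, near its upper end. The lists are not in genome order, and a peak's place is given as the percent of its list's lines from the top, without knowing what the authors sorted by. The peaks of this region stood low in both lists, 97.8% of the way down PA 1 and 91.4% down PA 2. By the mean place in the lists, 1192 of the 1315 PA-only regions of the series stood higher. The PA-only region beyond the gene (32522950 to 32523349) lay 7580 bp from its upper end, outside any annotated gene. It began at the same base in both PA libraries and stood 63.9% down PA 1 and 63.1% down PA 2, with 237 PA-only regions higher. Its nearest WT peak was 9023 bp away.

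The last PA-only region of the Minpp1 window (32550448 to 32550852) lay inside Gm36419, 35078 bp from Minpp1. It stood 86.4% down PA 1 and 69.2% down PA 2. A WT peak began 698 bp above it, in a region (32551454 to 32551964) called in PA 1, WT 1 and WT 2, so that PA 1 had a peak in each of these neighbouring regions and PA 2 only in the lower. Across the series, 6.84% of PA-only regions had a WT peak within 1 kb. With such regions left out, the Minpp1 window held 2 PA-only regions.

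At the Minpp1 start every library had a peak, but not in the same place. The peak of PA 1 (32485666 to 32486065) covered the transcription start. Peaks of PA 2, WT 1 and WT 2 formed a region inside the gene (32486312 to 32486758), at 590, 543 and 568 bp from that start. The places in the lists were 62.6% for PA 1 and 53.8% for PA 2, against 67.2% for WT 1 and 60.3% for WT 2. Within 1 kb of a gene end, Minpp1 was therefore called in both genotypes. The highest region of the window in every list lay over the start of Gm36419 (32543053 to 32543513). It stood at 43.5% in PA 1 and 39.6% in PA 2, against 44.5% in WT 1 and 40.8% in WT 2.

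**Figure D2:**
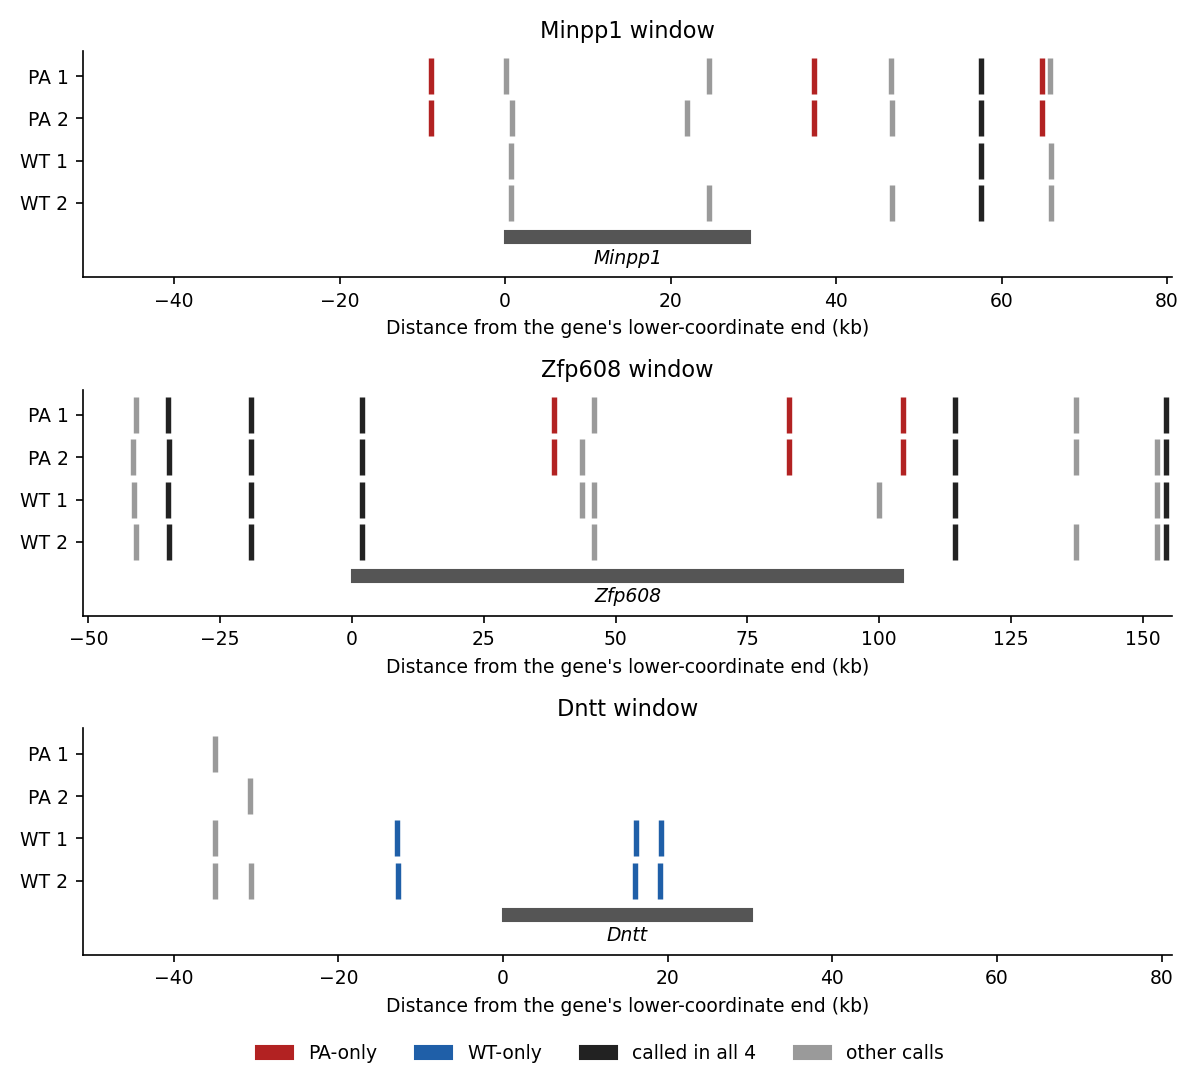
Peaks of each library (rows, PA 1 and PA 2 above WT 1 and WT 2) in the windows of Minpp1, Zfp608 and Dntt, against distance in kb from the gene end with the lower coordinate. Each mark is the centre of 1 peak and the bar is the gene. The 3 PA-only regions of Minpp1 lie outside the gene, those of Zfp608 inside it or at its upper end, and 2 of the 3 WT-only regions of Dntt inside it.

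Zfp608 (gene ID 269023, chromosome 18, 54888045 to 54992591) had 11 peaks in PA 1 and 12 in PA 2 in its window, against 10 in WT 1 and 9 in WT 2. The 3 PA-only regions that chose the gene make up the surplus in PA. Without them the counts were 8 in PA 1 and 9 in PA 2, against 10 in WT 1 and 9 in WT 2. The window held 15 regions. Of these 3 were PA-only, 5 were called in all 4 libraries, 3 in 3 libraries, 3 in 1 library of each genotype and 1 in WT 1.

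All 3 PA-only regions at Zfp608 touched the gene. The region over its upper end (54992435 to 54992834), which also lies in the long non-coding RNA gene Gm4221, began at the same base in PA 1 and PA 2. Its place was 19.6% in PA 1 and 33.1% in PA 2, and only 26 of 1315 PA-only regions had a higher mean place. A WT 1 peak lay 4160 bp away (54987876 to 54988275, 37.5% down that list), with no peak of another library. The lower end of the gene had a different pattern. A region 1650 bp inside that end (54889695 to 54890140) was called in all 4 libraries, at 63.2% in PA 1 and 54.1% in PA 2, against 62.0% in WT 1 and 65.3% in WT 2. The region at the upper end thus stood higher in both PA lists than the region of all 4 libraries near the lower end.

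Further inside Zfp608, a PA-only region at 54970833 to 54971232 again began at the same base in both libraries and stood at 50.1% in PA 1 and 55.5% in PA 2. Its nearest WT peak was 16644 bp away, the largest such distance among the PA-only regions of these windows. The PA-only region at 54926137 to 54926598 stood lower, at 75.8% in PA 1 and 79.8% in PA 2, and its peak starts differed by 62 bp. It lay 4958 bp from a WT peak, in a region (54931556 to 54931976) called in PA 2 and WT 1. The gene body thus held 3 PA-only regions, counting the one over its end, beside 4 other regions, which were called in 1, 2, 3 and 4 libraries.

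Outside the gene the Zfp608 window held 8 regions, of which 6 were called in PA 1 and 7 in PA 2, against 6 in WT 1 and 7 in WT 2. Regions at 54852990, 54868655, 55002283 and 55042274 were called in all 4 libraries. The first of them stood higher in the PA lists, at 27.5% in PA 1 and 44.5% in PA 2, against 56.2% in WT 1 and 53.6% in WT 2. The others showed no such order, as the places of PA and WT libraries overlapped. Below the gene, adjacent regions at 54846397 to 54846824 (PA 2 and WT 1) and 54846880 to 54847280 (PA 1 and WT 2) were each called in 1 library of each genotype. With peaks up to 500 bp apart joined they would form 1 region of all 4 libraries.

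**Figure D3:**
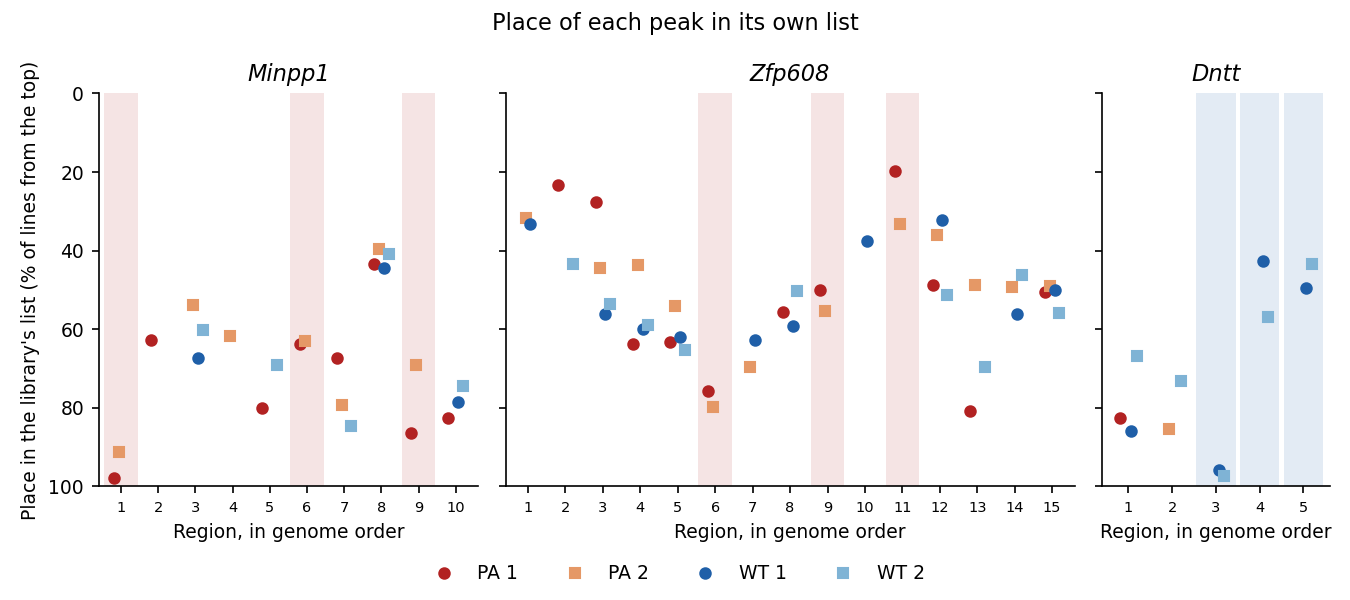
Place of each peak in its own library's list (vertical axis, percent of lines from the top, with the top of the list upwards) for the regions of each window in genome order. Shaded columns are PA-only (red) or WT-only (blue) regions. The PA-only region over the upper end of Zfp608 (region 11) stands at 19.6% and 33.1%, while the first Minpp1 region and the third Dntt region stand past 90% in both lists.

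Dntt (gene ID 21673, chromosome 19, 41029275 to 41059525, plus strand) had 1 peak in PA 1 and 1 in PA 2 in its window, against 4 in WT 1 and 5 in WT 2. Without the 3 WT-only regions that chose the gene, the counts were 1 in PA 1 and 1 in PA 2, against 1 in WT 1 and 2 in WT 2. The window held 5 regions, fewer than those of Minpp1 and Zfp608, and no region was called in all 4 libraries. The 3 WT-only regions made up the upper part of the called window, and from 41016204 upward no PA library had a peak within it.

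A pair of WT-only regions lay inside Dntt, at 41045100 to 41045623 and 41048180 to 41048607, at 15825 and 18905 bp from the transcription start. The first stood at 42.6% in WT 1 and 56.9% in WT 2, and the second at 49.4% in WT 1 and 43.5% in WT 2. By mean place, 167 and 143 of the 768 WT-only regions stood higher. The nearest PA peak was 46348 bp from the first and 49428 bp from the second, against a median of 10613 bp over all WT-only regions. Both distances run to the same PA 2 peak, which starts at 40998353, so they are not separate observations. The locus was also chosen for its WT-only regions, so the median is no expectation for it. The remaining WT-only region (41016204 to 41016685) lay before the gene, 12590 bp from its start and outside any annotated gene. Its peaks were among the last in both lists, at 95.8% in WT 1 and 97.2% in WT 2, and 752 WT-only regions stood higher.

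The PA peaks of the Dntt window lay 34807 bp (PA 1) and 30523 bp (PA 2) before the gene start. The region over the Blnk start (40994069 to 40994472) was called in PA 1 at 82.6%, against 86.0% in WT 1 and 66.8% in WT 2, and not in PA 2. Next to it, the region at 40998353 to 40998836 was called in PA 2 at 85.4%, against 73.1% in WT 2. Opalin, which encodes a myelin membrane protein of oligodendrocytes, lies 2434 bp above Dntt and had no peak within 1 kb of an end in any library. The same was true of Tll2, a metalloprotease gene of the tolloid family. The window of Opalin overlaps that of Dntt and holds the same 3 WT-only regions, so these genes are 1 locus and not separate cases.

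Dntt itself had no peak within 1 kb of either end in any library. Marker genes of lymphocytes were mostly uncalled as well. A peak near an end was present for 2 of 10 lymphocyte markers in PA 1 and 1 in PA 2, against 1 in WT 1 and 3 in WT 2. Every library called 1 of the 10 (10%), beside 41.3% of all genes. Tcf7 had one in all 4 libraries, Cd3d in PA 1 and WT 2, and Cd2 in WT 2. Ptprc, Cd3e, Cd79a, Cd79b, Ms4a1 and Lef1 had none in any library. The window of Cd79a held 1 PA-only and 1 WT-only region. Among all genes, 9.73% had 1 or more PA-only regions and 6.58% 1 or more WT-only regions, so 1 marker cannot be set apart. The part of lymphocytes in the Dntt calls was not tested. In whole liver, fewer cells of a type and less open chromatin per cell cannot be told apart.

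Genes with roles related to those of Minpp1 and Dntt were examined next. Among all genes, 9.73% had 1 or more PA-only regions in their window and 6.58% had 1 or more WT-only regions. Of the 19 other genes of inositol phosphate metabolism examined, 0 had a PA-only region and 2 (10.5%) had a WT-only region, counts too small to set apart from those shares. Itpk1, an inositol phosphate kinase, held a WT-only region inside the gene (chromosome 12, 102691122 to 102691528), at 51.4% in WT 1 and 52.4% in WT 2 and 8599 bp from a PA peak. Inpp4b, a phosphatase of phosphoinositide lipids, held one inside the gene at 70.9% in WT 1 and 96.2% in WT 2 (chromosome 8, 81996250 to 81996658), only 217 bp from a PA peak. Ipmk, Ippk, Ip6k1 and Ppip5k2, kinases of the route to highly phosphorylated inositols, were called within 1 kb of an end by every library, as were 14 of the 19 genes (73.7%), against 41.3% of all genes.

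Of the 15 genes that join with Dntt in V(D)J recombination or in non-homologous end joining and polymerase X repair, 0 had a restricted region of either kind, and 10 (66.7%) were called near an end by every library, beside the same 41.3%. A count of 0 among so few genes is also near the shares over all genes. These included Prkdc, the catalytic subunit of the DNA-dependent protein kinase, Lig4, the ligase of end joining, and Polm, the polymerase most like the Dntt product. Rag1 and Rag2, which cut antigen receptor genes and are made in developing lymphocytes, had no peak near an end in any library. Zfp609, the relative of Zfp608, was called near an end by every library and had no restricted region.

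Restricted regions were few in the flanks, from the window edge out to 500 kb from the gene. Minpp1 had 1 PA-only and 1 WT-only region among 30 (3.33% each). Zfp608 had 1 PA-only (7.14%) and 0 WT-only among 14, and Dntt had 1 PA-only (5.56%) and 0 WT-only among 18. Over all merged regions the shares were 3.38% PA-only and 1.98% WT-only, from which counts this small cannot be set apart. Minpp1 was thus flanked by a region of each genotype, 212 bp apart, at 32388969 to 32389368 (PA-only) and 32388291 to 32388757 (WT-only). The Dntt flank held a PA-only region 320662 bp from the gene and no further WT-only region. The Zfp608 flank held a PA-only region 114538 bp from the gene (55107129 to 55107653). Of the flank regions, 11 at Minpp1, 5 at Zfp608 and 8 at Dntt were called in all 4 libraries. In the windows these were 1 of 10, 5 of 15 and 0 of 5, and over all merged regions 45.25%. The windows were chosen for restricted regions, which lowers their share of regions of all 4 libraries, so window and flank are not compared.

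Peak placement differed between the windows. The starts of the paired peaks of PA-only regions differed by 4, 0 and 5 bp at Minpp1 and by 62, 0 and 0 bp at Zfp608, where 51 of the 1315 PA-only regions of the series (3.88%) began at the same base in both libraries. At Dntt the starts differed by 82, 124 and 28 bp. Over the series the median difference was 31 bp where PA-only and 30 bp where WT-only, and in regions of all 4 libraries it was 18 bp between the PA libraries and 20 bp between the WT libraries. So 5 of the 6 PA-only regions of these loci were placed within 5 bp, as were 17.9% of all PA-only regions. The limit of 5 bp equals the largest difference at Minpp1, so that share is no expectation for these loci. At Dntt, 2 of 3 were placed further apart than 75% of WT-only regions (58 bp). Overlap of the paired peaks was a condition of the selection, which bounds these differences. Regions in 1 window are not independent, so no test was made.

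**Figure D4:**
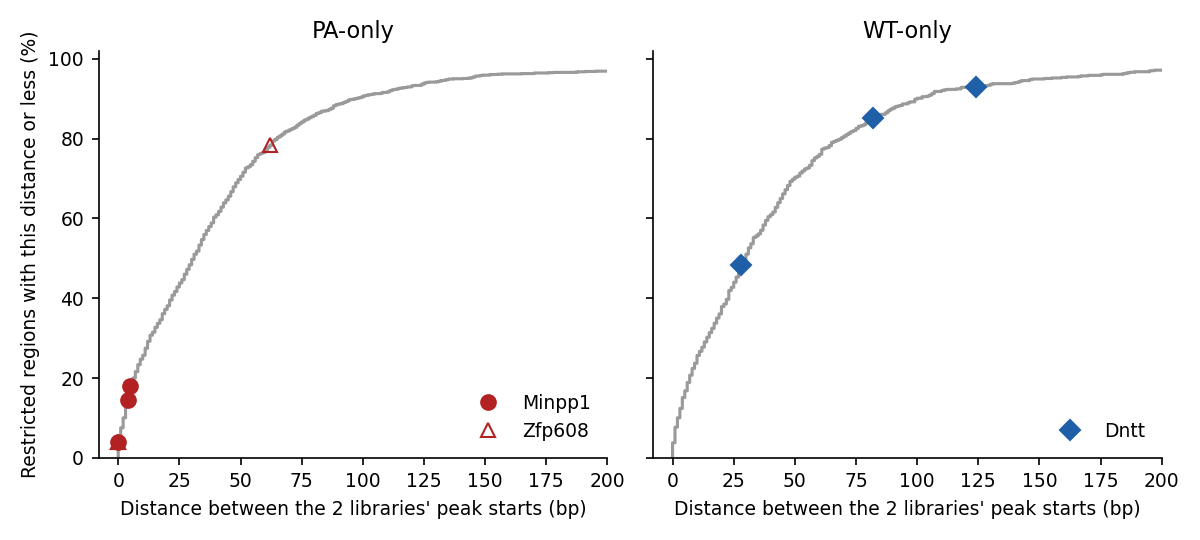
Cumulative share of all PA-only (left) and WT-only (right) regions of the series (grey line) by the distance in bp between the starts of the 2 libraries' peaks. Symbols are the restricted regions of Minpp1 (circles), Zfp608 (triangles) and Dntt (diamonds). 5 of the 6 PA-only regions lie at 5 bp or less, and the Dntt regions lie at 28, 82 and 124 bp.

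The windows differ in how crowded they were, counting regions of every kind. The Minpp1 window had 7.72 regions per 100 kb and the Zfp608 window 7.33, while the median gene window had 2.61. Density was lower than at Minpp1 for 98.4% of genes and lower than at Zfp608 for 97.7%. Dntt had 3.84 regions per 100 kb, above 70.8% of genes. A window with more regions has more places where a restricted region can be called, and the counts of restricted regions are part of these densities.

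Other genes met the same rule. The genes with the most PA-only regions outside these loci were Fhit, a hydrolase of dinucleotides, and Pde4b, a cyclic AMP phosphodiesterase, with 4 each. Arhgap24, which encodes a GTPase-activating protein, Kcnq1, a potassium channel gene, and Maml3, a coactivator of Notch signalling, followed with 3 each. Rbms3, Snd1 and Usp6nl also had 3 and come after these by alphabet. The windows of these 8 genes ran from 226 kb (Usp6nl) to 1712 kb (Fhit), against 130 kb for Minpp1 and 205 kb for Zfp608, which is close to Usp6nl. Among WT-only regions, Bcr, a GTPase regulator, and Gse1, which encodes a nuclear coiled-coil protein, had 3 each in windows of 224 kb and 453 kb, against 130 kb for Dntt, and Pde4b had 3 beside its 4 PA-only regions. The next genes by the same order, 1110051M20Rik and 2200002J24Rik, had 2 each and stand there by alphabet among 108 genes with that count. Minpp1, Zfp608 and Dntt had restricted regions of a single genotype in their windows, as did Fhit, Kcnq1, Maml3, Rbms3, Usp6nl, Opalin and Bcr, whereas Pde4b, Arhgap24, Snd1 and Gse1 had regions of both.

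**Figure D5:**
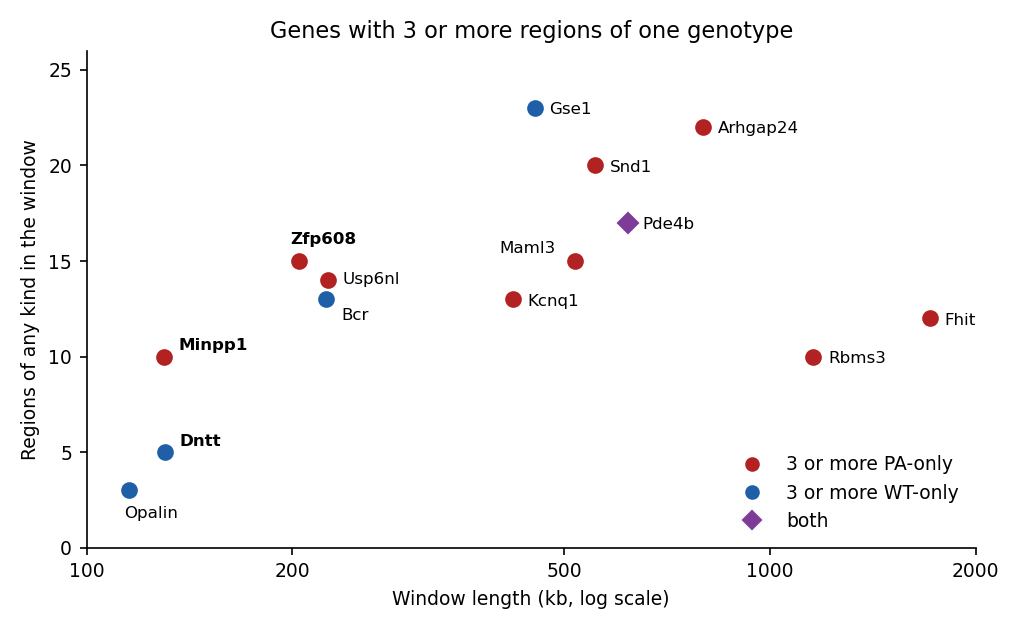
All 14 genes with 3 or more PA-only or 3 or more WT-only regions, by the length of the window in kb (horizontal axis, log scale) and the number of regions of any kind in it (vertical axis). Red is PA-only, blue is WT-only and the diamond is Pde4b, with 3 or more of each. Dntt at 130 kb with 5 regions and Minpp1 at 130 kb with 10 lie at the short end, next to Opalin, whose window overlaps that of Dntt.

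Overlap with promoter windows was counted for the chromosomes with promoter sequences. Of PA-only regions there, 10.4% (129 of 1242) overlapped a promoter window. The share was 11.5% for WT-only regions (85 of 739) and 40.6% for regions called in all 4 libraries. None of the 6 restricted regions of Minpp1 and Dntt overlapped one, a count that such shares also give. The first Minpp1 region lay within 1 kb of an end of Gm46659. Zfp608, with a PA-only region over its upper end, is not in this count. In these 2 windows, promoters under a peak were those of Minpp1, Gm36419 and Blnk, and their regions were called in 3 or 4 libraries or, at the Minpp1 start, in PA 1.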

How the data were processed

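The data were ATAC-seq peak lists of 4 mouse livers, 2 per genotype, grouped by the samples' titles. The series design calls the replicates biological. The authors deposited 1 list of positions per library, with no score, height or p. The submitters' processing notes name bedtools 2.31.0, HOMER 4.10, R 4.1.2, SAMtools 1.17, Bowtie2 2.5.1 and cutadapt 3.5, and the build GRCm38 (mm10). Not given in the sources used here are the peak caller, its threshold, read filters and any shift of cut sites. A library with more reads or less background can pass a threshold at more places.

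Peaks that overlapped or touched were merged in Python 3.11.15 with pandas 2.3.3, and at least 1 bp of a library's peak in a region counted as a call. Each list had 3 or 4 peaks of a length other than 400 bp. Distances run between the nearest bases. Genes came from the RefSeq table of GRCm38.p6, which gives ends but no exons, so exons, introns and untranslated parts are not told apart. Strand came from the RefSeq promoter table. Lines did not follow genome order. Over shared regions, which are not independent, place in the list was correlated between libraries (Spearman's rho 0.862 to 0.929). The authors' ordering is not stated, so place is a description.

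With 2 libraries against 2 there are 3 splits, and the smallest two-sided p of an exact permutation test is 0.333, so no test was run. The merging and counting were tested on simulated lists. The members, gene lists and motifs were chosen with earlier results of these data known. Named genes were the 3 members, the protein-coding genes in their windows, up to 5 genes per direction with the most restricted regions elsewhere, and genes of the 2 related lists with a restricted region. Other list and marker genes, and Rbms3, Snd1 and Usp6nl, are named as examples chosen after their values were seen. The genes of the 2 related lists, the relative Zfp609 and the 2 marker lists (hepatocyte and lymphocyte) were all matched by symbol. The value of 1 marker gene is not reported here.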

Additional observations from a re-analysis of the deposited data

How the results depend on the processing

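How well the 3 restricted regions of a locus held up differed between the loci. Those of Zfp608 were all still counted except in the upper 50% of each list. Those of Dntt were too, except in the upper 50% and upper 90%. The Minpp1 count fell under more settings, some of which changed the counting rule and not the calls. With an overlap of at least 50% of the shorter peak, or with peaks up to 500 bp apart joined, each window had the same 3. Leaving out regions within 1000 bp of a peak of the other genotype left 2 at Minpp1, as did a window of 25 kb. Both dropped the region starting at 32550448, which lay 35078 bp from the gene and 698 bp from a WT peak. Its calls were unchanged. Lists of equal length (25683 lines) and the upper 90% of each list (chosen after seeing the data) each left 2 at Minpp1. The upper 90% also left 2 at Dntt. In the upper 50% of each list, Minpp1 had 0 PA-only regions and Dntt 1 WT-only region. Zfp608 had 2 PA-only regions, of which 1 was among the 3. The other was the region starting at 54852990, called in all 4 libraries in the full lists, whose WT peaks fell below the cut. A shorter list drops calls of both genotypes by construction, and can so turn a shared region into a restricted one. With a window of 100 kb Minpp1 had 4 PA-only and 1 WT-only region. With a library left out, its genotype needs 1 call in place of 2, and its peaks no longer bar a region from the other genotype. Both add regions by construction and remove none of the 3. The counts then ranged from 3 to 4 for PA-only regions at Minpp1 and at Zfp608 and for WT-only regions at Dntt, and from 0 to 1 for WT-only regions at Minpp1 and Zfp608. The added WT-only region was a different one each time. At Minpp1 it lay in the region starting at 32551454 without PA 1 and at 32486312 without PA 2. At Zfp608 it lay in the region starting at 54933802 without PA 1, at 55040622 without PA 2 and at 54987876 without WT 2. Genes with 3 or more regions of 1 genotype numbered 14, against 50 with a window of 100 kb, 3 in the upper 50%, and 126 to 415 with a library left out (126 without WT 1, 217 without WT 2, 415 without PA 1 and 392 without PA 2). No paired analysis was possible because the counts come from no test. Depth is unknown, so an uncalled window is not shown to be closed.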
